A study of Bos taurus and Sus scrofa with 10 samples.

Results

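The genes described here are 10 proteins proposed to switch on, or to accompany the switching on of, the embryo's own genome: ZSCAN4, KDM4E, DUXA, ARGFX, LEUTX, KLF17, DPPA2, DPPA4, NFYA and OTX2. They were taken by symbol from 2 tables of RNA sequencing, 1 for cow (Bos taurus, 22845 rows) and 1 for pig (Sus scrofa, 21867 rows). A row was found for 4 of the 10 in cow (ZSCAN4, DPPA2, NFYA and OTX2) and for 4 of the 10 in pig (KLF17, NFYA, ARGFX and OTX2). KDM4E, DUXA, LEUTX and DPPA4 are absent as symbols from both tables, and no level is given for them. NFYA and OTX2 are the symbols found in both species, and each symbol found had 1 row. Total RNA was profiled in each species at 5 stages: oocytes, embryos of 2-4 cells, embryos of 8-16 cells, morulae (compacting balls of cells) and blastocysts (hollow embryos with an inner cell mass and an outer trophectoderm). Every stage was sequenced as 1 library per species, 10 in all, so differences cannot be set against replicate spread and no p-value is given. The labels name no treatment, strain, genotype or age, and neither the number of embryos pooled per library nor their production (in vitro or in the animal) is given in the sources used here. The series title places the data in work on DNA methylation before implantation, species differences and imprinted genes.

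A mammalian egg carries RNA stored by the mother, and the embryo lives on it until its own genome is switched on, which happens later in cow than in pig. The candidate regulators fall into families that act in different ways. NFYA is the DNA-binding subunit of NF-Y, which recognises CCAAT boxes in promoters; OTX2, ARGFX, DUXA and LEUTX are homeodomain proteins; KLF17 is a zinc finger factor of the Krüppel-like family; ZSCAN4 joins a SCAN domain to zinc fingers and is known for a brief burst in early mouse and human embryos; DPPA2 and DPPA4 bind each other and chromatin; and KDM4E removes methyl groups from lysine 9 of histone H3.

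Levels are given as reads per 1000000 sequenced reads (RPM), recovered from the deposited log2 values, with the reads behind them and a 95% Wilson interval where it matters. RPM is not divided by gene length, so it compares a gene between stages of 1 species, and neither genes with each other nor species with each other. It is also a share of a library, so fewer cells of a type and less RNA per cell cannot be told apart. A difference between stages is given in log2(RPM + 1), a scale that understates the change of genes with low levels. A gene was compared where it had at least 1 RPM in either stage, and was called higher or lower at a difference of at least 2, which is 4-fold on that scale. The share of all rows called in the same comparison is given with the counts as their background. Reads without molecular identifiers are not independent molecules, so intervals, folds with intervals and floors cover counting error only.

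Read totals ran from 3002751 in the pig morula library to 14182046 in the cow blastocyst library. A count of 0 allows up to 3 reads, a floor between 0.212 RPM in the cow blastocyst and 0.999 RPM in the pig morula. Stage markers followed the labels: the summed level of 11 oocyte genes (of 12 listed) fell from 6606 RPM in the cow oocyte to 0.353 RPM in the cow blastocyst, and in pig from 8392 to 22.3 RPM, while 8 trophectoderm genes (of 9 listed) went from 52.7 to 3314 RPM (cow) and from 7.11 to 8290 RPM (pig). The 6 inner cell marker genes summed to 15.0 RPM in the cow oocyte and 544 RPM in the cow blastocyst, and to 34.6 and 269 RPM in pig. These genes did not move as a set. Between those stages 3 of 5 compared were called higher and 0 lower in cow, and 1 of 4 higher and 1 lower in pig. In the pig blastocyst 3 of the 6 had 0 reads. In the cow blastocyst PDGFRA (270 RPM) and GATA6 (226 RPM) were the largest, while NANOG went from 76.4 RPM in the morula to 14.5 RPM. Cumulus or granulosa genes (15 rows in cow, 12 in pig) summed to between 36.9 and 989 RPM in cow and between 54.6 and 1856 RPM in pig. FST and FOXL2 (cow) and INHA (pig) had 0 reads throughout. The highest sums were those of both blastocyst libraries, where PTGS2 alone stood at 902 RPM (cow) and 1809 RPM (pig). From the oocyte to the blastocyst 2 of 8 compared were called higher and 3 lower in cow. In pig 3 of 7 were called higher and 2 lower. Blood genes summed to at most 11.0 RPM and fibroblast genes to at most 14.7 RPM in every library. Mitochondrial rows took between 2.74% (cow 2-4 cell) and 30.2% (cow blastocyst) of the reads.

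ZSCAN4 was present in 2 of the 5 cow libraries. Its row spans chr18:65278553-65280012 on the plus strand (the submitters' processing notes name the builds UMD3.1 and Sscrofa11.1, taken here as cow and pig), 1460 bases, and no other row overlaps it. It had 0 reads in the oocyte, 0 in the 2-4 cell embryo, 29.5 RPM in the 8-16 cell embryo (160 reads, 25.2 to 34.4), 21.3 RPM in the morula (83 reads, 17.2 to 26.4) and 0 reads in the blastocyst. The silent libraries sit on both sides of the 2 that hold it, and their floors were 0.609 RPM, 0.676 RPM and 0.212 RPM. From the 2-4 cell to the 8-16 cell embryo the level was at least 43.6-fold higher (difference 4.66), which is place 183 of 12405 rows compared when ordered from the largest increase. The 8-16 cell level was 1.38 times that of the morula (1.05 to 1.83, difference -0.45, not called). From the morula to the blastocyst it was at least 101-fold lower (difference -4.39), the 95th largest decrease of 12653 rows compared. The blastocyst is the deepest library of the series, so its 0 reads carry the lowest floor. Few rows had this shape: 12 of the 22845 cow rows had 0 reads in the oocyte, the 2-4 cell embryo and the blastocyst with at least 10 RPM in both stages between, among them 8 with a symbol (BECN2, CT55, DDX3Y, FSIP2, GRO1, IL2RG, PAG7 and ZSCAN4). In pig, where ZSCAN4 is absent as a symbol, 2 rows of 21867 had it, EFHD1 and ZNF804A.

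DPPA2 appeared in cow at the same step and stayed. Its row lies on chr1:54481399-54490989, minus strand, with no overlapping row. The levels were 0 reads in the oocyte, 0 in the 2-4 cell embryo, 22.1 RPM in the 8-16 cell embryo (120 reads, 18.5 to 26.4), 27.7 RPM in the morula (108 reads, 22.9 to 33.4) and 32.7 RPM in the blastocyst (464 reads, 29.9 to 35.8). The first 2 libraries are thus empty of DPPA2 at floors of 0.609 and 0.676 RPM, and the later 3 lie close to each other. It was at least 32.7-fold higher in the 8-16 cell than in the 2-4 cell embryo (difference 4.26, place 280 of 12405) and at least 53.8-fold higher in the blastocyst than in the oocyte (difference 4.83). The later steps were 1.25-fold (0.958 to 1.64) and 1.18-fold (0.956 to 1.47), and both intervals include 1. In order of level the blastocyst, the morula and the 8-16 cell embryo follow each other with overlapping intervals for each neighbouring pair; those of the 8-16 cell embryo and the blastocyst do not overlap. The same outline, 0 reads in the first 2 stages and at least 10 RPM in the later 3, was found in 25 cow rows, 22 of them with a symbol. They include the pluripotency factors NANOG, ESRRB and ZFP42, the trophectoderm factor TFAP2C and the hypoblast factor GATA6; the 5 were picked out of the 22 after their names were seen. In pig 4 rows had that outline (CD9, PDXK, SLC34A2 and SLC6A8), and DPPA2 is absent there as a symbol.

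**Figure D1:**
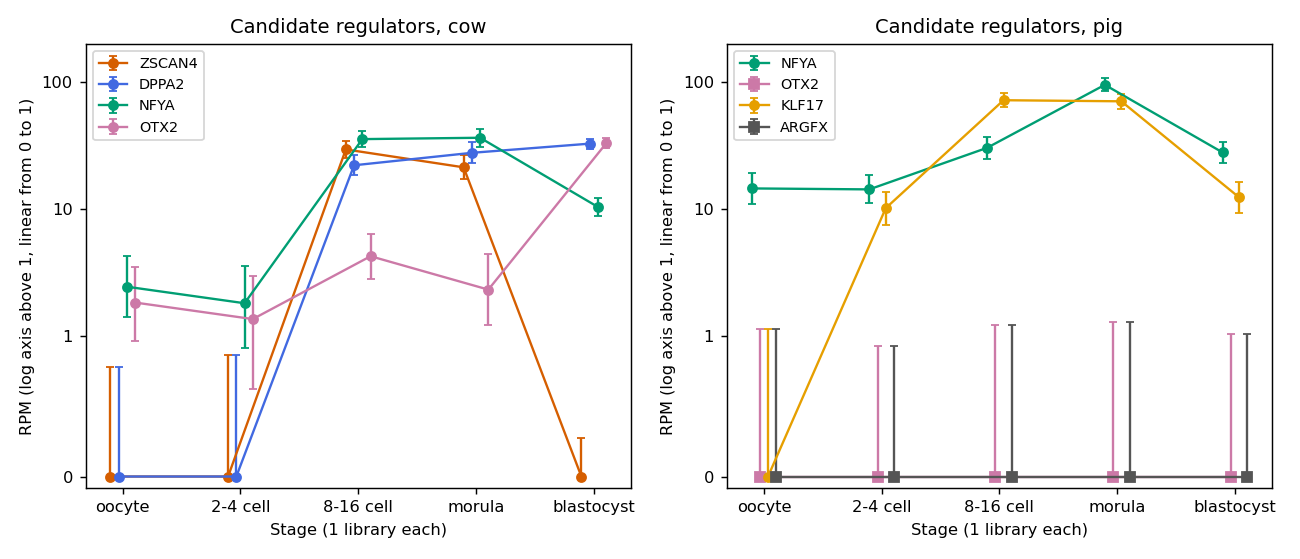
Level of each candidate regulator with a row in the cow table (left) and the pig table (right), 1 library per stage; the vertical axis is RPM, linear from 0 to 1 and logarithmic above, points are levels and bars are 95% Wilson intervals from the reads, so that the bar at 0 reads reaches above the floor given in the text. ZSCAN4 is at 0 in 3 cow stages and at 29.5 and 21.3 RPM in the 8-16 cell embryo and the morula, OTX2 reaches 32.9 RPM in the cow blastocyst, and KLF17 is at 0 in the pig oocyte. The pig rows with the symbols ARGFX and OTX2 (squares) are at 0 throughout, but what they measure is uncertain and no level of these genes is drawn from them.

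NFYA was the 1 member read in all 10 libraries. In cow, on chr23:15006380-15030449 (plus strand), it stood at 2.43 RPM in the oocyte (12 reads, 1.39 to 4.25), 1.80 RPM in the 2-4 cell embryo (8 reads, 0.913 to 3.56), 35.5 RPM in the 8-16 cell embryo (193 reads, 30.9 to 40.9), 36.4 RPM in the morula (142 reads, 30.9 to 42.9) and 10.4 RPM in the blastocyst (147 reads, 8.82 to 12.2). The 8-16 cell embryo and the morula are the high libraries, the oocyte and the 2-4 cell embryo the low ones, and the blastocyst lies between without overlapping either pair. The step from the 2-4 cell to the 8-16 cell embryo was 19.7-fold (9.81 to 46.3; difference 3.70, place 436 of 12405). Between the 8-16 cell embryo and the morula the ratio was 1.03 (0.819 to 1.28), and which of the 2 is higher depended on the scaling. The blastocyst was 3.51 times below the morula (2.77 to 4.46), a difference of -1.72 that did not reach the threshold, and 4.26 times above the oocyte (2.37 to 8.43), a difference of 1.73. The last difference became 2.21, and so was called, when libraries were scaled to gene reads outside the mitochondrial chromosome.

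In pig NFYA lies on chr7:36386632-36409490 (plus strand), between OARD1 and TREML1 as in cow. Its levels were 14.5 RPM in the oocyte (49 reads, 11.0 to 19.2), 14.3 RPM in the 2-4 cell embryo (59 reads, 11.1 to 18.4), 30.3 RPM in the 8-16 cell embryo (96 reads, 24.8 to 37.0), 95.2 RPM in the morula (286 reads, 84.8 to 107) and 27.9 RPM in the blastocyst (104 reads, 23.0 to 33.8). The morula alone lies above the rest, the 8-16 cell embryo and the blastocyst overlap, and so do the oocyte and the 2-4 cell embryo. The ratios of successive stages were 2.13 (1.52 to 2.99) into the 8-16 cell embryo, 3.14 (2.48 to 4.00) into the morula and 3.42 downward (2.72 to 4.32) into the blastocyst. None of the pig differences of NFYA reached 2; the nearest were 1.62 into the morula and -1.74 into the blastocyst. The level in the 2-4 cell embryo was 1.02 times below that of the oocyte, with an interval of 0.682 to 1.51. The differences between successive stages were thus -0.29, 3.70, 0.03 and -1.72 in cow and -0.02, 1.04, 1.62 and -1.74 in pig, given side by side and without a test of the species difference.

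NF-Y needs all its subunits, and NFYB and NFYC, which pair through histone folds before NFYA joins them, had rows in both tables. In cow NFYB stood at 41.0, 44.8, 158, 126 and 33.4 RPM from the oocyte to the blastocyst, and NFYC at 47.7, 68.5, 33.9, 105 and 107 RPM. In pig NFYB stood at 45.0, 26.8, 40.7, 34.6 and 13.7 RPM and NFYC at 17.5, 16.4, 25.9, 49.3 and 35.1 RPM. Neither partner was called at any of the 5 comparisons in either species, 0 of 2 each time, beside shares of all rows from 0.374% (cow, oocyte to 2-4 cell) to 45.2% (pig, oocyte to blastocyst). The nearest was cow NFYB from the morula to the blastocyst (difference -1.89), followed by its step from the 2-4 cell to the 8-16 cell embryo (1.80). Cow NFYB is high in the same 2 libraries as cow NFYA. Cow NFYC is lowest in the 8-16 cell embryo, where cow NFYA is near its highest.

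**Figure D2:**
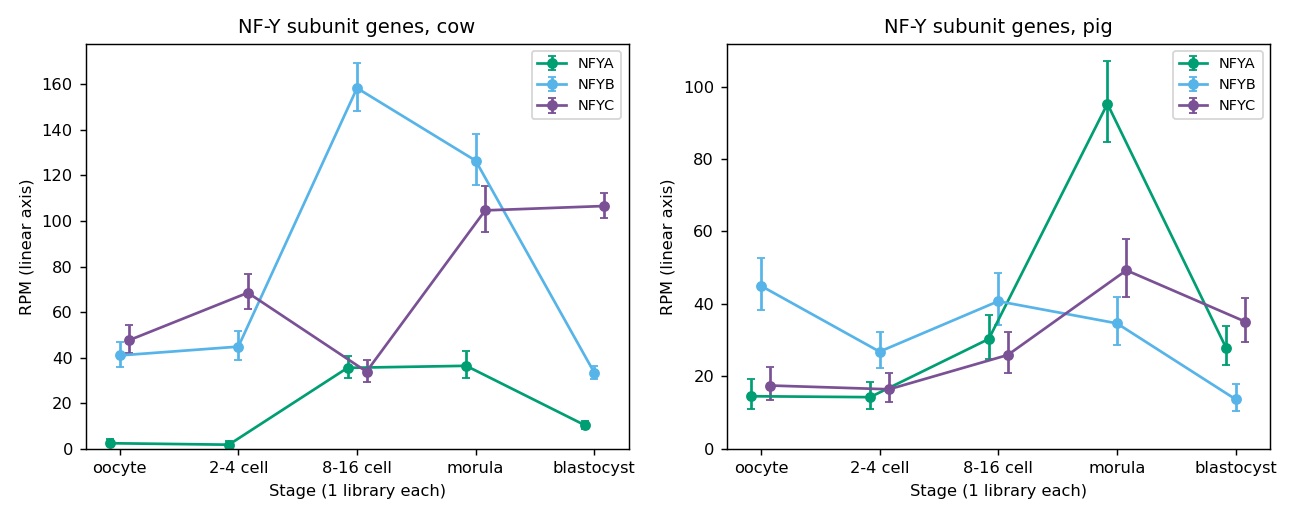
Level in RPM (linear axes from 0, with a separate scale for each species) of the NF-Y subunit genes NFYA, NFYB and NFYC in cow (left) and pig (right), with 1 library per stage and 95% Wilson intervals as bars. Cow NFYA and NFYB are high in the 8-16 cell embryo and the morula (35.5 and 36.4, 158 and 126 RPM), and pig NFYA has its highest level, 95.2 RPM, in the morula.

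OTX2, a homeodomain protein known for its role in the epiblast and the anterior embryo, was the late gene of the cow set. Its row lies on chr10:69458818-69462865, minus strand, between TMEM260 and EXOC5. It stood at 1.83 RPM in the oocyte (9 reads, 0.960 to 3.47), 1.35 RPM in the 2-4 cell embryo (6 reads, 0.620 to 2.95), 4.23 RPM in the 8-16 cell embryo (23 reads, 2.82 to 6.35), 2.31 RPM in the morula (9 reads, 1.21 to 4.39) and 32.9 RPM in the blastocyst (466 reads, 30.0 to 36.0). The blastocyst is the 1 high library, and the intervals of the other 4 overlap for every pair that neighbours in order of level. OTX2 rose 14.2-fold from the morula to the blastocyst (7.43 to 31.3; difference 3.36, place 389 of 12653) and 18.0-fold from the oocyte to the blastocyst (9.40 to 39.6; difference 3.58). The ratio of the 8-16 cell to the 2-4 cell embryo was 3.13 (1.24 to 9.40; difference 1.15, not called, place 2828 of 12405), on 23 and 6 reads. Between the same morula and blastocyst libraries the 8 trophectoderm rows went from 135 to 3314 RPM in sum, and the 6 inner cell rows from 454 to 544 RPM. Of 5 inner cell rows compared, 1 was called higher and 1 lower. The 15 cumulus or granulosa rows went from 36.9 to 989 RPM (7 and 8 of them at 0 reads). In that sum PTGS2 alone went from 1.54 to 902 RPM, and 2 of 6 rows compared were called higher and 0 lower. The mitochondrial share went from 9.15% to 30.2%. With libraries scaled to gene reads outside the mitochondrial chromosome the OTX2 difference was 3.79. The part of the cell type markers in it was not tested.

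KLF17 was the 1 member called in pig, from the first step on. Its row lies on chr6:167176834-167188418, minus strand, between DMAP1 and SLC6A9. It had 0 reads in the oocyte (floor 0.888 RPM), 10.1 RPM in the 2-4 cell embryo (42 reads, 7.51 to 13.7), 72.0 RPM in the 8-16 cell embryo (228 reads, 63.3 to 82.0), 70.6 RPM in the morula (212 reads, 61.7 to 80.8) and 12.3 RPM in the blastocyst (46 reads, 9.25 to 16.4). After the oocyte the profile is close to symmetrical. The 8-16 cell embryo and the morula overlap each other, and the 2-4 cell embryo and the blastocyst overlap each other well below them. KLF17 was at least 11.4-fold higher in the 2-4 cell embryo than in the oocyte (difference 3.14, place 76 of 11362 rows compared) and rose a further 7.10-fold into the 8-16 cell embryo (5.09 to 10.1; difference 2.71, place 152 of 12153). The morula was 1.02 times lower (0.842 to 1.24), and the blastocyst was 5.72 times lower than the morula (4.15 to 8.06; difference -2.42). The blastocyst still stood at least 13.9-fold above the oocyte (difference 3.40). Of the 21867 pig rows, 6 had 0 reads in the oocyte with at least 10 RPM in each of the other 4 libraries, and those with a symbol were CADM1, DGKH, KLF17 and TEAD4, the last a factor of trophectoderm formation. No cow row had that pattern, and KLF17 is absent from the cow table as a symbol.

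Other Krüppel-like factors, a family whose zinc fingers recognise GC-rich and CACCC sequences, moved in both species. Of 17 listed relatives, 13 had a row in cow and 15 in pig. In cow 5 of the 9 compared from the 2-4 cell to the 8-16 cell embryo were called higher and 1 lower (KLF11), with a median difference of 3.89 beside -0.44 over all rows, of which 12.6% were called higher and 14.6% lower. KLF10 went from 0.901 to 131 RPM (difference 6.12), KLF9 from 0.225 RPM (1 read) to 72.5 RPM (5.91), KLF4 from 26.6 to 948 RPM (5.10) and KLF3 from 2.93 to 71.2 RPM (4.20), and KLF5 (11.7 to 188 RPM) was the other. At the same step in pig 3 of 11 were called higher and 0 lower, beside 4.33% and 0.543% of all rows. They were KLF10 (3.14 to 30.6 RPM), KLF8 (19.1 to 113 RPM) and KLF13 (0.725 RPM, 3 reads, to 8.84 RPM). One step earlier, from the pig oocyte to the 2-4 cell embryo, where KLF17 first appeared, KLF9 was called higher, 1 of 10 compared (1.18 to 8.70 RPM, difference 2.15), beside 3.26% of all rows. In cow 0 of 8 were called at that step, beside 0.374% of all rows.

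**Figure D3:**
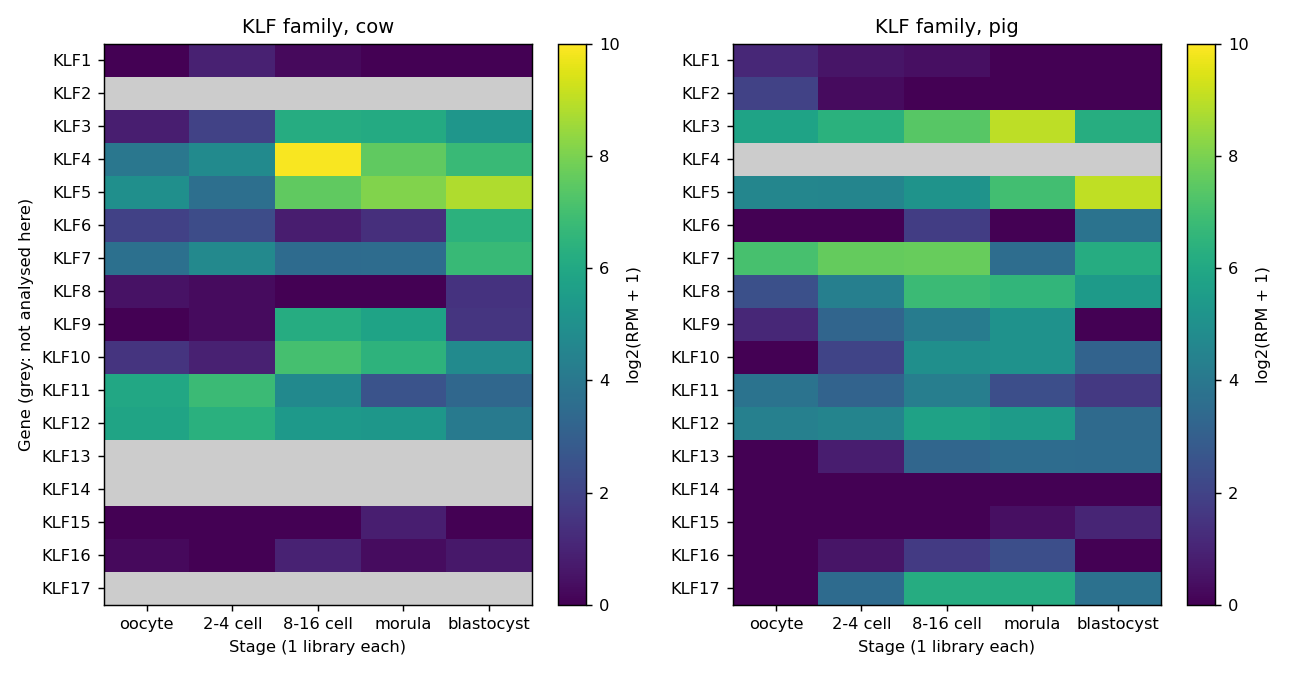
Level of the Krüppel-like genes as log2(RPM + 1) by colour, for cow (left) and pig (right), 1 library per stage; grey marks genes not analysed here, and rows of different genes are not comparable because RPM is not divided by length. KLF4 and KLF10 in cow change from the 2-4 cell to the 8-16 cell embryo (26.6 to 948 and 0.901 to 131 RPM), and pig KLF17 is at 0 reads in the oocyte and at 72.0 and 70.6 RPM in the 8-16 cell embryo and the morula.

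The pig rows carrying the symbols ARGFX and OTX2 had no read in any of the 5 libraries. The floors allow at most 0.725 RPM in the 2-4 cell embryo, the deepest of the pig libraries, and 0.999 RPM in the morula. Both rows are short, 813 bases (chr7:44853394-44854206, minus strand) for ARGFX and 834 bases (chr14:66071117-66071950, plus strand) for OTX2. Rows without a read in any library are common, 27.4% of all pig rows and 28.9% of all cow rows. The surroundings of the pig rows differ from those of the cow genes. The pig OTX2 row lies between ZNF365 and ADO, whose cow rows are on chromosome 28, while TMEM260 and EXOC5, which flank OTX2 on cow chromosome 10, are on pig chromosome 1. The pig ARGFX row lies between TFAP2B and PKHD1, whereas RefSeq's cow annotation (ARS-UCD2.0) places ARGFX between POLQ and FBXO40, which are on pig chromosome 13 in the deposited table. What the 2 rows measure is therefore uncertain, and no level of pig OTX2 or ARGFX is drawn from them.

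Set against all rows, the members called in cow gathered at the step from the 2-4 cell to the 8-16 cell embryo. There 3 of the 4 compared were called, all higher (ZSCAN4, DPPA2 and NFYA), beside 27.2% of the 12405 rows called in either direction, 12.6% higher and 14.6% lower. The median difference of the 4 was 3.98, and that of all rows -0.44. ZSCAN4 and DPPA2 had 0 reads in the 2-4 cell embryo, so they could enter this comparison only as higher. The members were also chosen with earlier results of these data known, so the counts describe these libraries only. In the same pair of libraries 10 of 11 oocyte markers were called lower and none higher, and their sum went from 6162 to 821 RPM; the part of this in the members' differences was not tested. One step earlier, from the oocyte to the 2-4 cell embryo, 0 of the 2 compared (NFYA and OTX2) were called, and 0.374% of all rows were (0.196% higher and 0.178% lower). From the 8-16 cell embryo to the morula 0 of 4 were called beside 11.8% of all rows (6.67% higher and 5.15% lower), with medians of -0.21 and 0.07. From the morula to the blastocyst 2 of 4 were called, OTX2 higher and ZSCAN4 lower, beside 23.4% of all rows, with medians of -0.74 and -0.11. Between the oocyte and the blastocyst 2 of 3 were called, DPPA2 and OTX2, both higher, beside 40.2% of all rows in either direction and 21.8% higher, with medians of 3.58 and 0.18.

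In pig KLF17 and NFYA were the members that could be compared. With 0 reads in the oocyte, KLF17 could be called only as higher against that stage. KLF17 was the 1 of 2 called from the oocyte to the 2-4 cell embryo, beside 5.43% of all rows, and again into the 8-16 cell embryo, beside 4.87%. Into the morula 0 of 2 were called beside 23.3% of all rows. KLF17 was called lower from the morula to the blastocyst, 1 of 2 beside 27.6%, and higher from the oocyte to the blastocyst, 1 of 2 beside 45.2%. In those 5 comparisons the median of the pair was 1.56, 1.87, 0.80, -2.08 and 2.15, and that of all pig rows -0.14, 0.21, 0.18, -0.11 and 0.43. The summed oocyte markers stood at 8392, 4711, 4238, 286 and 22.3 RPM and the trophectoderm markers at 7.11, 22.0, 32.2, 104 and 8290 RPM over the same 5 pig libraries, and their part in the KLF17 differences was not tested.

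**Figure D4:**
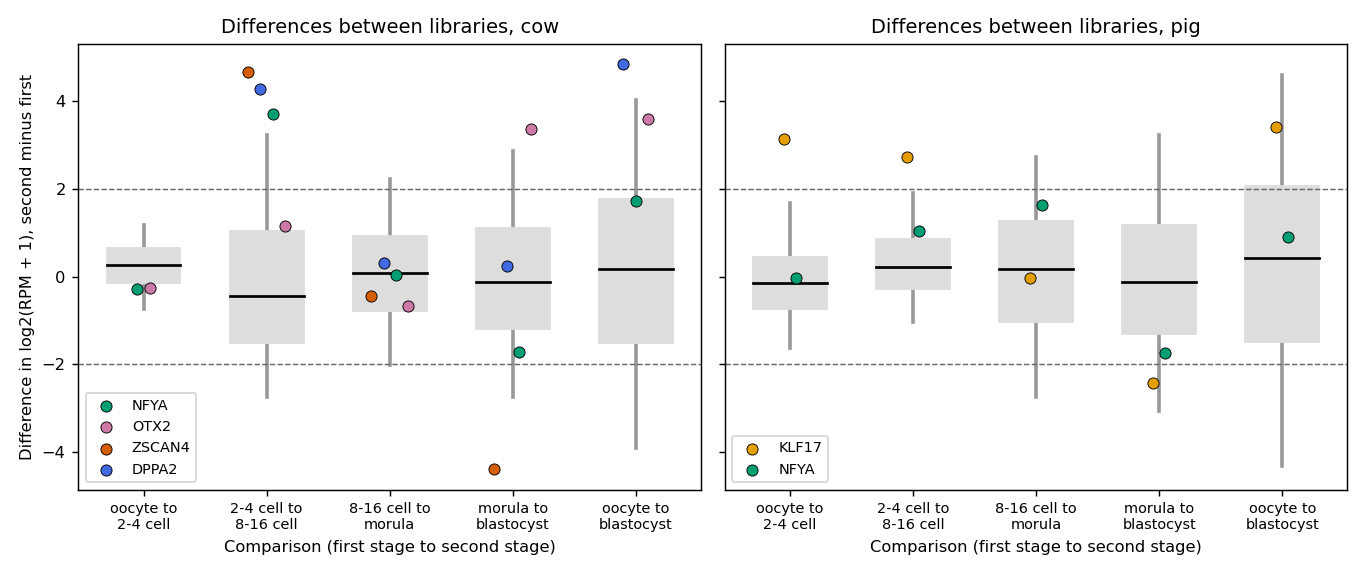
Difference in log2(RPM + 1) of each compared member (points) between the stages named on the horizontal axis, in cow (left) and pig (right), over the distribution of all rows compared (grey box from the 25th to the 75th percentile, line at the median, whiskers at the 5th and 95th percentiles); dashed lines mark the threshold of 2. ZSCAN4 (4.66), DPPA2 (4.26) and NFYA (3.70) lie above the cow whisker at the step from the 2-4 cell to the 8-16 cell embryo, and KLF17 (3.14 and 2.71) above the pig whiskers at the first and second steps.

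Some genes have profiles near those of the members over the 5 libraries of a species, on a scale that understates changes at low levels. Likeness was measured as the root mean square difference of log2(RPM + 1) profiles, each centred on its own mean, among 10413 cow and 9524 pig rows with a symbol and at least 5 RPM in 1 library. Nearest to ZSCAN4 were DSC3 (0.08), a desmosomal cadherin, IL2RG (0.14), a cytokine receptor chain, and PTGER3 (0.30), a prostaglandin receptor. Nearest to DPPA2 were HNF4G (0.16), PRSS12 (0.17) and RPS12 (0.23). Nearest to cow NFYA were ZNF296 (0.12), HIPK3 (0.13) and ERICH5 (0.15), and nearest to cow OTX2 were SMUG1 (0.16), POF1B (0.17) and FHOD1 (0.17). Pig NFYA had PDCD10 (0.08), DRD3 (0.09) and GPR141 (0.13) nearest. Pig KLF17 had no neighbour as close: KLF10 of its own family came first at 0.51, before DBR1 (0.52) and EDA (0.55). Closeness on this scale does not mean like levels or folds. DRD3 stood at 0, 0, 1.58, 5.66 and 1.34 RPM, and ZNF296 had 0 reads in the cow oocyte and 2-4 cell embryo. RPS12 stood at 10.8 RPM in the cow oocyte, where DPPA2 had 0 reads. With 5 libraries and 1 per stage these distances describe the libraries only.

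The families of the members whose own symbols are missing were read through their relatives. Of 14 homeobox relatives of DUXA, ARGFX, LEUTX and OTX2, 4 had rows in each species. In cow OTX1, the nearest relative of OTX2, stood at 0, 0, 19.1, 1.80 and 0 RPM from the oocyte to the blastocyst. It was called higher into the 8-16 cell embryo (4.07) and lower into the morula (-2.85, beside 5.15% of all rows). The pig row with that symbol stood at 108, 214, 277, 243 and 111 RPM with no call. It spans chr3:78895882-79345378, far longer than the cow row (chr11:61479110-61482379). Whether its reads come from OTX1 alone was not tested, so the 2 profiles are not compared. NOBOX, an oocyte homeobox gene, fell in cow from 24.3 RPM in the 2-4 cell embryo to 2.95 RPM in the 8-16 cell embryo and in pig from 20.5 RPM in the 8-16 cell embryo to 0 reads in the morula. Of 2 further genes with the DPPA name, 1 had a row in each species: cow DPPA3 fell from 2769 RPM in the oocyte to 179 RPM in the blastocyst, and pig DPPA5 stood at 147, 41.8, 17.4, 0.666 (2 reads) and 16.6 RPM.

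Of 5 relatives of KDM4E, KDM4A, KDM4B and KDM4C had rows in both species. KDM4C was called higher from the cow 8-16 cell embryo to the morula (28.7 to 229 RPM, 1 of 3 beside 6.67% of all rows), and KDM4A at the same step in pig (15.8 to 83.6 RPM, 1 of 3 beside 12.0%), where KDM4B was called lower (5.37 RPM to 0 reads, beside 11.3%). Pig KDM4B was called higher again in the blastocyst (7.51 RPM, beside 13.8%), so that the morula was its 1 library without reads. No KDM4 relative was called higher before that step in either species. Among 19 SCAN zinc finger genes related to ZSCAN4, 10 had a row in cow and 11 in pig, and none of the 5 to 9 compared was called higher at any of the 5 comparisons in either species, beside shares of all rows from 0.196% to 21.8% in cow and from 3.26% to 26.0% in pig. ZSCAN26 fell from 91.9 RPM in the cow oocyte to 1.13 RPM in the blastocyst and from 254 to 14.2 RPM in pig. Between the oocyte and the blastocyst 2 of 9 were called lower in cow (ZSCAN26 and ZSCAN20), beside 18.4% of all rows, and 3 of 7 in pig (ZSCAN26, ZSCAN16 and ZSCAN12), beside 19.2%.

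A further list held 25 other proposed activators of the embryonic genome, with 22 rows in cow and 24 in pig. At the step where cow ZSCAN4, DPPA2 and NFYA rose, 7 of its 22 cow genes were called higher and 2 lower, beside 12.6% and 14.6% of all rows, with a median of -0.03 beside -0.44 over all rows. TFAP2C had 0 reads in the 2-4 cell embryo and 232 RPM in the 8-16 cell embryo, and NANOG 0 reads and 116 RPM. PRDM14 went from 0.451 RPM (2 reads) to 34.6 RPM and MYC from 0 reads to 25.8 RPM. At the step where pig KLF17 appeared, 2 of 22 were called higher, NR5A2 (0 reads to 13.0 RPM) and TEAD4 (0 reads to 10.4 RPM), beside 3.26% of all rows. The same step had 2 called lower, OOEP (16.6 to 2.42 RPM) and SALL4 (377 to 89.2 RPM), beside 2.17%. NR5A2, an orphan nuclear receptor, went on to 95.7 RPM in the pig 8-16 cell embryo and 117 RPM in the morula and was at 4.29 RPM in the blastocyst.

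The last list held 26 genes reported to be switched on with the human homeodomain factor DUX4 or early in genome activation, of which 11 had a row in cow and 8 in pig. From the cow 2-4 cell to the 8-16 cell embryo 4 of 9 were called higher (SLC34A2, EIF1AX, TBX3 and CCNA1) and 1 lower (HSPA1A), beside 12.6% and 14.6% of all rows, with a median of 1.64 beside -0.44. SLC34A2, a phosphate transporter, went from 0.225 RPM (1 read) to 93.5 RPM, and EIF1AX, a translation initiation factor, from 58.6 to 719 RPM. In pig 3 of 7 were called higher at that step (SLC34A2, SNAI1 and TBX3), beside 4.33% of all rows, and 3 of 7 into the morula (TBX3, SLC34A2 and EIF1AX), beside 12.0%. At the latter step 1 of 7 was called lower, TFAP2A (5.05 to 0.333 RPM, 16 reads and 1 read), beside 11.3%. Pig SLC34A2 had 0 reads in the oocyte and the 2-4 cell embryo, 35.1 RPM in the 8-16 cell embryo, 496 RPM in the morula and 10.2 RPM in the blastocyst. The lists were chosen with knowledge of these data and of the field, and their counts describe these libraries.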

How the data were processed

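Total RNA of 10 samples was isolated with a kit for very small samples, amplified with a low-input cDNA kit and sequenced, per the labels' protocols. The submitters' processing notes name Trim Galore 0.6.4, HISAT2 2.1.0 and the builds UMD3.1 and Sscrofa11.1; the counting tool, annotation, and treatment of strand and duplicates are not given in the sources used here. Without a stated strand setting, reads of antisense genes cannot be told apart. The deposited tables hold log2 values, 1 row per gene and 1 column per stage, scaled by the authors to reads per 1000000 reads of each library, as the values themselves show: between 99.94% and 99.99% were whole multiples of 1 read within 0.01 read, and rows without reads were written as 0.9 of a read. Reads, totals and RPM were recovered from these steps, and gene rows held 71.7% to 92.7% of the totals. Levels of 0 reads are printed as 0 and entered differences as deposited. Differences of log2(RPM + 1) were computed within a species, since the 2 tables were scaled separately, with a minimum of 1 RPM in either library and a threshold of 2. Folds against 0 reads are lower bounds against 3 reads per library; other folds have exact conditional 95% intervals for a ratio of 2 counts. No count model was used, because each group has 1 library. Every member with a row was named with all its values, with its 3 nearest symbols, and lists were given by counts and up to 4 examples, those with the largest absolute difference at the step said or from oocyte to blastocyst; genes of small counts were named in addition after their values were seen. Where a symbol had several rows, that of the highest mean stood for it. The members and lists were chosen with earlier results of these data known. Alternatives were another pseudocount, 3 scalings, other minima, a threshold of 1, summed rows, and 2 treatments of low reads added after seeing the data. The calculation was tested on simulated data with Python 3.11.15, numpy 2.4.6, pandas 2.3.3 and scipy 1.17.1. Gene neighbours came from the deposited coordinates and from RefSeq's cow gene table (ARS-UCD2.0), used for names and order only. Promoter and protein sequences were not used here, and a planned motif search was not run.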

Additional observations from a re-analysis of the deposited data

How the results depend on the processing

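Of 100 recalculated counts of members called, 97 stayed within 1.5 times the value given, and the 3 others, all pig and all at a threshold of 1, were 2 called from the 2-4 cell to the 8-16 cell embryo, 1 called from the 8-16 cell embryo to the morula and 2 called from the morula to the blastocyst, NFYA being the gene added. Of 210 recalculated differences of members no called one changed sign and 10 moved, as in ZSCAN4 into the 8-16 cell embryo (4.18 to 5.41 over the alternatives) and DPPA2 from oocyte to blastocyst (4.39 to 5.67). The highest stage of cow NFYA became the 8-16 cell embryo under median scaling and quantile normalisation; the other 16 of 18 were as given. Counts over all rows moved more: cow oocyte to 2-4 cell had 42 called, 107 with a pseudocount of 0.5, 64 outside the mitochondrial chromosome, 62 with rows summed and 1343 at a threshold of 1, and pig 617 became 991 and 592 became 990 at its first 2 steps with a pseudocount of 0.5. At a threshold of 1 the other cow comparisons had 7801, 5180, 7199 and 8973 called and the 5 pig comparisons 3101, 3086, 7189, 7518 and 9075. The higher share of calls was 52.4% at the first cow step and 23.8% (median scaling), 24.4% (quantile), 68.2% (pseudocount of 0.5), 67.7% (rows summed) or 80.4% (threshold of 1), 46.5% and 61.0% (median) at the second; in pig 60.0% and 76.1% (median) or 42.9% (threshold of 1) at the first, 88.9% and 74.2% (median) or 62.7% (quantile) at the second, 51.7% and 41.1% (median) at the third. The median difference of all rows from oocyte to blastocyst ranged from -0.02 to 0.59 in cow and from 0.02 to 0.70 in pig over the alternatives. Leaving out a replicate could not be done with 1 library per group. No paired analysis was possible because each group has 1 library. Depth limits ZSCAN4, DPPA2 and KLF17 at 0 reads to floors of 0.212 to 0.888 RPM, and cow OTX2 before the blastocyst to between 6 and 23 reads.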

Other observations

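Rows without a symbol stand where the cow gene table of RefSeq (ARS-UCD2.0) places members that are absent from the cow table as symbols. RefSeq's table holds 9 of the 10 members (not KDM4E), and 5 of those 9 have no cow row under their symbol. The order of neighbours does not identify a row, so which gene each row holds was not established, and the values are given for the position only. Between DMAP1 and SLC6A9 on cow chromosome 3, where RefSeq places KLF17, 2 rows without a symbol lie. One of them, ENSBTAG00000047871 (chr3:102526631-102541169), had 0 reads in the oocyte, 0.225 RPM (1 read) in the 2-4 cell embryo, 471 RPM in the 8-16 cell embryo (453 to 490), 199 RPM in the morula (185 to 213) and 4.58 RPM in the blastocyst (3.60 to 5.84). The other had no reads. Between POLQ and FBXO40 on cow chromosome 1, where RefSeq places ARGFX, the single row without a symbol was ENSBTAG00000002273 (chr1:66694546-66696538). It had 0 reads in the oocyte and the 2-4 cell embryo. Its later levels were 135 RPM in the 8-16 cell embryo (126 to 145), 154 RPM in the morula (143 to 167) and 2.68 RPM in the blastocyst (1.95 to 3.68). Both rows were high in the 2 libraries in which cow ZSCAN4 was read.

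Between DPPA2 and NECTIN3 on cow chromosome 1, where RefSeq places DPPA4, 6 rows without a symbol lie, 2 of them with reads. The one beside DPPA2 (chr1:54509507-54516574) had 0 reads in the oocyte and the 2-4 cell embryo, 11.6 RPM in the 8-16 cell embryo (9.07 to 14.8), 52.6 RPM in the morula (45.9 to 60.3) and 62.5 RPM in the blastocyst (58.5 to 66.7). DPPA2 itself was read in the same 3 libraries and in no other. The other row with reads (chr1:54649606-54650250) stood at 4.67, 3.83, 8.10, 14.9 and 0 RPM from the oocyte to the blastocyst. Between EID2 and DYRK1B on cow chromosome 18, where RefSeq places LEUTX, 3 rows without a symbol lie, all with reads. One of them (chr18:49605114-49606340) stood at 1.62, 2.93, 31.3, 3.08 and 0 RPM over the 5 stages. The second (chr18:49552815-49554731) had 1, 4, 0, 1 and 10 reads, and the third (chr18:49578803-49580639) had 1 read, in the blastocyst. In pig, between TMEM260 and EXOC5 on chromosome 1, the flanks of OTX2 in cow, the single row ENSSSCG00000005063 (chr1:186027585-186038340) fell from 276 RPM in the oocyte and 362 RPM in the 2-4 cell embryo to 210 RPM, 117 RPM and 17.7 RPM in the later stages. Its highest library was the 2-4 cell embryo, and that of cow OTX2 the blastocyst. Between MORC1 and NECTIN3 on pig chromosome 13, the flanks of DPPA2 in cow, 4 rows without a symbol lie. ENSSSCG00000037627 stood at 0, 0.483, 11.1, 19.6 and 57.6 RPM over the 5 stages, and ENSSSCG00000031524 at 2.07, 22.2, 71.4, 175 and 34.0 RPM. The others had 8 reads in the blastocyst and 9 in the morula. Between ZNF134 and ZNF274 on pig chromosome 6, the flanks of ZSCAN4 in cow, 10 such rows lie, none with its cow shape. Between POLQ and FBXO40 in pig no row without a symbol lies.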
